A study of Mus musculus with 24 samples.

Results

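The major urinary protein genes (Mup genes) are a mouse gene family that encodes small secreted carrier proteins. The 6 genes described here, Mup1, Mup3, Mup4, Mup5, Mup20 and Mup21, were taken by symbol from both deposited expression tables, which hold 24319 genes each. Each table lists another 14 rows named Mup, which are described only as the setting of the 6. The study sequenced polyA RNA of 24 samples, 12 of whole liver and 12 of isolated hepatocytes, with 3 biological replicates per genotype. All animals were 2-month-old male mice of strain C57/BL6. The WT controls are labelled wild type, the IkkB KO mice Alb-Cre+;IkkBf/f, the Shp2 KO mice Alb-Cre+;Shp2f/f and the Double KO mice Alb-Cre+;IkkBf/f;Shp2f/f. Cre recombinase under the albumin promoter deletes in hepatocytes and in cells that descend from albumin-expressing precursors, so other liver cells keep the floxed genes. All 3 knockout groups carried Cre and the WT labels name none, so an effect of Cre itself and of the deletions cannot be told apart in comparisons with WT. Ptpn11 is the gene of Shp2, a phosphatase needed for growth factor signals to reach Ras and Erk. Ikbkb is the gene of IkkB, the kinase that frees the inflammatory transcription factor NF-κB from its inhibitor.

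Major urinary proteins are lipocalins, barrel-shaped carriers that bind small volatile pheromones. The liver of adult male mice makes them in very large amounts, and they pass from blood into urine, where they release scent signals slowly. Their transcription in liver is known to depend on the pulsed growth hormone pattern of males, acting through STAT5b, and to be raised by androgen, thyroid hormone and glucocorticoid. Among the 6, Mup20 encodes darcin, a male sex pheromone, and Mup1 has been studied as a circulating signal in glucose and lipid metabolism. Mup4 and Mup5 are best known from glands of the head, and Mup3 is a liver-expressed copy.

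The copies are similar enough that sequencing reads can be assigned to more than 1 of them. A 60-base stretch of each coding sequence, taken from the longest GENCODE vM21 transcript and aligned to bases 121 to 180 of the Mup1 reading frame, shows how they differ. Capitals mark bases that differ from Mup1.
Mup1: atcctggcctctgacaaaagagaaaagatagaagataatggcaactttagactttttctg
Mup3: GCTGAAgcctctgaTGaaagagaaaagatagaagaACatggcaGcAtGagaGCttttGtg
Mup4: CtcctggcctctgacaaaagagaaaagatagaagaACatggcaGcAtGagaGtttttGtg
Mup5: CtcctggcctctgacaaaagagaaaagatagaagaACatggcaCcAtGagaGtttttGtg
Mup20: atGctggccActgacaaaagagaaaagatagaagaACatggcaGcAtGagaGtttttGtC
Mup21: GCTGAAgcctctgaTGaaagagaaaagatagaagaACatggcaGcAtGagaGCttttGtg
Mup3 and Mup21 each differed from Mup1 at 16 of these 60 bases, Mup20 at 10, and Mup4 and Mup5 at 8 each. The reading frames hold 178 to 184 codons without the stop, and their pairwise identity ran from 82.5% (Mup1 and Mup3) to 94.8% (Mup3 and Mup21). Of all 50-base windows of the Mup1 transcript, 94.8% also occurred in a transcript of another of 49 Mup genes and pseudogenes, and for Mup20 the share was 50.1%. The other 4 genes were more distinct, with shared windows of 15.6% in Mup3, 12.4% in Mup4, 16.1% in Mup5 and 19.3% in Mup21. The sources used here give neither the read length nor the handling of reads that match several copies, and how far a level holds reads of another copy was not tested. Of the 6 symbols, 4 have also served as older names of another Mup gene (Mup1, Mup3, Mup4 and Mup5), so a symbol of the deposited mm9 tables is used here as it stands there.

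**Figure D1:**
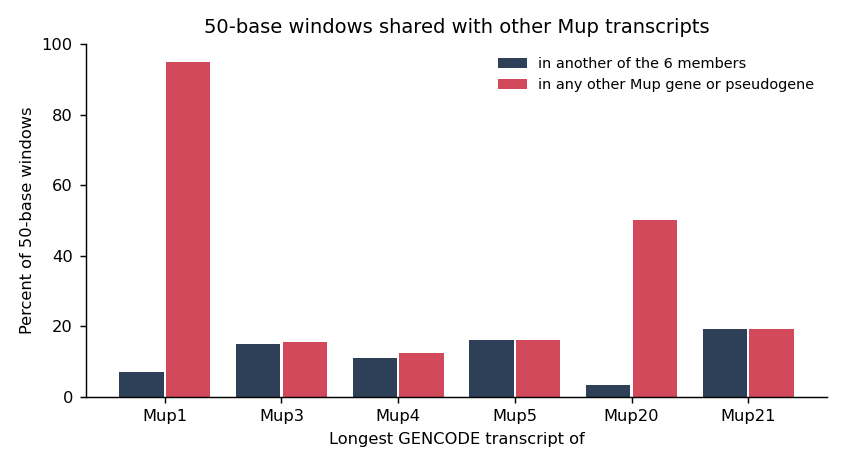
Percent of the 50-base windows in the longest GENCODE transcript of each gene that also occur in another of the 6 genes (dark bars) or in any other Mup gene or pseudogene (red bars). Mup1 reaches 94.8% and Mup20 50.1% against all Mup genes, while the other 4 stay between 12.4% and 19.3%.

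Each table gives 1 expression value per gene and genotype and none per replicate, so no SD can be given and the sequencing depth is unknown. By the convention of Cuffdiff, the program that made the tables, the values are FPKM, which correct fragment numbers for the length of the transcript and the size of the library and so let levels of different genes be set side by side. "Rose" and "fell" mark genes with a q-value under 0.05 in the authors' deposited table, Cuffdiff's test over all genes and the only measure of replicate error here. Rows of loci with too many fragments for Cuffdiff are marked HIDATA, and a 0 listed there is not a measurement. A value above 0 in such a row was kept as the level of its genotype, but the row gives no test. Among the 6, Mup1, Mup3 and Mup20 were not measured in WT liver, Mup20 was also missing in Shp2 KO liver, and hepatocyte values were missing for Mup3 in IkkB KO and for Mup20 in all genotypes but Shp2 KO. Mup4, Mup5 and Mup21 were measured in all 4 genotypes of both tables, and Mup1 in all 4 of the hepatocyte table.

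The deleted genes were lower in the genotypes labelled as lacking them, as shown by Ikbkb at 15.7 in WT and 9.48 in IkkB KO liver and Ptpn11 at 12.5 in WT and 4.09 in Shp2 KO liver. In Double KO liver Ikbkb was 6.31 and Ptpn11 was 6.09, so Ptpn11 was higher there than in Shp2 KO. Hepatocyte Ptpn11 was 16.3 in WT, 4.465 in Shp2 KO and 5.77 in Double KO. Of 11 hepatocyte markers in the tables, 5, among them Alb, were not measured in every genotype. The other 6 summed to 16108 for WT, 15137 for IkkB KO, 11500 for Shp2 KO and 10522 for Double KO in liver, and to 18603, 15949, 12180 and 14352 in hepatocytes in the same order. Macrophage markers (12 measured, none at 0) summed to 249, 338, 335 and 665 in liver and to 103, 312, 246 and 311 in hepatocytes, so the hepatocyte preparations held signal of other liver cells as well. Against WT, 2, 3 and 11 of these 12 rose in IkkB KO, Shp2 KO and Double KO liver, and 11, 10 and 12 in hepatocytes. Among all genes, 2.37%, 5.23% and 11.5% rose and 2.17%, 4.1% and 6.62% fell in these liver comparisons. The hepatocyte shares were 7.6%, 7.13% and 9.04% for rises and 1.81%, 4.53% and 4.56% for falls. These shares also stand beside the marker counts against WT that follow. Of 6 or 7 testable hepatocyte markers, only 1 fell in Shp2 KO liver (Fgb, from 4401 to 1911), 1 in Shp2 KO hepatocytes (Apoa1, from 16137 to 5770) and 0 in the other 4 comparisons with WT. In the same order of genotypes, stellate cell and fibroblast markers (11) summed to 112, 119, 136 and 229.7 in liver and to 44.0, 161, 77.3 and 87.0 in hepatocytes. Of these, 0, 2 and 7 rose against WT in liver and 11, 5 and 8 in hepatocytes, and 1 fell in IkkB KO liver. Endothelial markers (11) summed to 142, 140.03, 106 and 145 in liver and to 67.2, 130.1, 75.5 and 115 in hepatocytes. Against WT, 4 endothelial markers fell in Shp2 KO liver, 1 rose in Double KO liver, and 10, 0 and 7 rose in hepatocytes. Bile duct markers (7 with a value of at least 0.1) summed to 70.4, 43.5, 49.2 and 151 in liver and to 36.4, 54.8, 47.7 and 72.4 in hepatocytes. In liver 4 of 7 fell in IkkB KO against WT, and 4 of 7 rose in Double KO against IkkB KO, where 11.5% of all genes rose. Lymphocyte markers (10) summed to between 6.23 and 13.3 in liver and between 1.34 and 4.06 in hepatocytes. What part such shifts have in the Mup levels was not tested. These are bulk samples, so fewer hepatocytes and less Mup RNA per hepatocyte cannot be told apart.

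In whole liver, each of the 6 genes that could be tested against WT fell in each single knockout. Mup21, the most abundant of those measured in all genotypes, stood at 802 for WT, 258 for IkkB KO, 199 for Shp2 KO and 58.7 for Double KO. Mup5 was 27.7, 9.39, 6.83 and 1.66 in the same order of genotypes. Mup4, at the lowest level, was 5.73, 2.83, 1.43 and 0.547. All 3 genes thus had their highest value in WT and their lowest in Double KO. In IkkB KO liver against WT, 3 of 3 testable members fell, beside 2.17% of all genes tested. The falls were 3.11-fold for Mup21 and 2.95-fold for Mup5, with q = 0.000955 for both in the authors' deposited table, the smallest q it holds. Mup4 was 2.03-fold lower with q = 0.0197 in the authors' deposited table, and its adjusted p over the alternative settings ran from 0.0197 to 0.0585, the upper end, which misses the threshold, being the adjustment within that comparison alone.

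In Shp2 KO liver against WT, again 3 of 3 testable members fell (4.1% of all genes fell). Their folds were nearly the same: 4.03 for Mup21, 4.06 for Mup5 and 4.02 for Mup4, each with q = 0.000955 in the authors' deposited table. Median differences on the log2(value + 1) scale were -1.87 for these members and -0.03 for all genes tested. The same median was -1.47 in IkkB KO against WT, where all genes stood at -0.01.

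The Double KO liver had the lowest level of every member measured in 3 or 4 genotypes. Against WT, 3 of 3 testable members fell (6.62% of all genes fell), by 13.7-fold for Mup21, 16.7-fold for Mup5 and 10.5-fold for Mup4. Each had q = 0.000955 in the authors' deposited table. Because Mup1 and Mup3 had no WT value, their fall shows only between knockouts. Mup3 stood at 13728 in IkkB KO liver, the third highest value of 24296 genes with a value there, at 1759 in Shp2 KO and at 562 in Double KO. Mup1 was 40.4, 10.9 and 1.56 in the same 3 genotypes. From IkkB KO to Double KO the level of Mup3 thus fell 24.4-fold and that of Mup1 fell 25.9-fold.

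**Figure D2:**
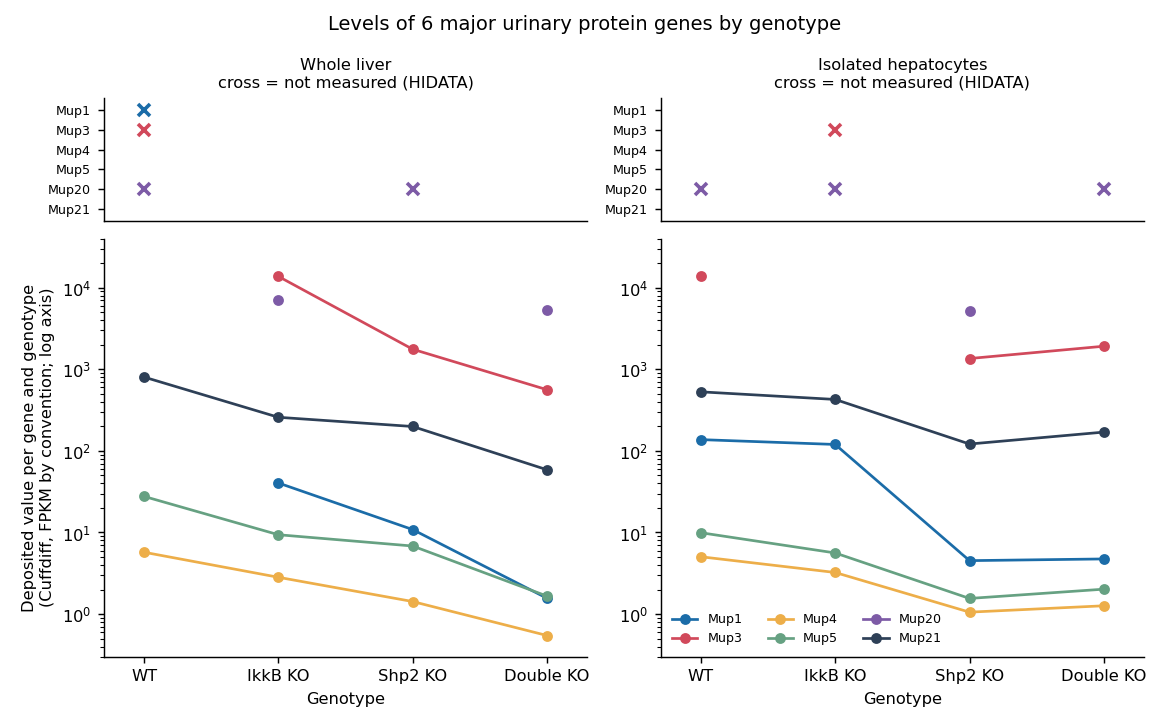
Deposited value of each of the 6 Mup genes (log axis) by genotype, with 1 pooled value of 3 replicates per point, in whole liver (left) and isolated hepatocytes (right); lines only link values of 1 gene, and crosses in the upper strips mark genotypes in which a gene was not measured. In liver Mup21 steps down from 802 in WT to 58.7 in Double KO, while in hepatocytes it is 529 in WT, 427 in IkkB KO and lowest in Shp2 KO (121).

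Between knockout livers, 5 of 6 members fell in Double KO against IkkB KO (7.5% of all genes fell) and 5 of 5 in Double KO against Shp2 KO (2.83% of all genes fell). In the first of these, the authors' deposited table gives log2 fold changes of -4.69 for Mup1, -4.61 for Mup3, -2.50 for Mup5, -2.37 for Mup4 and -2.14 for Mup21, each with q = 0.000955. Mup20, the darcin gene, was the exception, at 7092 in IkkB KO and 5308 in Double KO, where it was the seventh highest of 24306 genes. Its log2 fold change was -0.42 with q = 0.639 in the authors' deposited table. Mup20 was measured in no other pair, and the difference between its change and that of the other members was not tested. Against Shp2 KO, log2 fold changes in the authors' deposited table ran from -2.80 (Mup1) to -1.38 (Mup4, q = 0.0441), and the other 4 had q = 0.000955.

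Levels in Shp2 KO liver were below those in IkkB KO liver for all 5 members measured in both, but only 2 passed the test (4.84% of all genes fell). Mup3 fell 7.80-fold and Mup1 fell 3.72-fold, with q = 0.000955 for both in the authors' deposited table. Mup4 (2.83 and 1.43 in IkkB KO and Shp2 KO), Mup5 (9.39 and 6.83) and Mup21 (258 and 199) had q-values of 0.0654, 0.301 and 0.285 in the authors' deposited table. In the order of liver levels, IkkB KO and Shp2 KO were therefore the neighbours that Mup4, Mup5 and Mup21 did not separate past the threshold.

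In isolated hepatocytes the members measured in WT were lower than there in both genotypes that lack Shp2. Those with a value in IkkB KO lay closer to WT in that genotype. Mup1 stood at 137 for WT, 119.9 for IkkB KO, 4.52 for Shp2 KO and 4.74 for Double KO. Mup21 was 529, 427, 121 and 169.8 in the same order. The 4 values fall into a higher pair, WT and IkkB KO, and a lower pair, Shp2 KO and Double KO, for both genes. Mup3 was 13821 in WT, the fifth highest of 24301 genes, 1354 in Shp2 KO and 1916 in Double KO. It still ranked 56 from the top of 24307 genes in Shp2 KO and 33 of 24303 in Double KO. Mup5 was 9.94, 5.61, 1.56 and 2.02, and Mup4 was 5.04, 3.24, 1.06 and 1.27, in the order WT, IkkB KO, Shp2 KO, Double KO. Mup20 had only its Shp2 KO value of 5112, the eighth highest of 24307 genes. That value stands only in rows marked HIDATA, so no difference of Mup20 was tested in hepatocytes.

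Against WT, 5 of 5 testable members fell in Shp2 KO hepatocytes (4.53% of all genes fell). Mup1 fell 30.4-fold and Mup3 fell 10.2-fold, each with q = 0.00048 in the authors' deposited table. Mup5, Mup4 and Mup21 were 6.39-fold, 4.77-fold and 4.36-fold lower, with q of 0.00048, 0.00127 and 0.00048 in the authors' deposited table. The median of the members' differences was -2.12 on the log2(value + 1) scale, and that of all genes -0.01. In Double KO hepatocytes against WT, also 5 of 5 fell (4.56% of all genes fell). The folds were 29.0 for Mup1, 7.21 for Mup3, 4.92 for Mup5, 3.99 for Mup4 and 3.11 for Mup21, and each q was 0.00048 in the authors' deposited table.

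In IkkB KO hepatocytes against WT, 1 of 4 testable members fell (1.81% of all genes fell). That was Mup5, 1.77-fold lower with q = 0.0490 in the authors' deposited table, and its adjusted p over the alternative settings ran from 0.0490 to 0.129. No member of that pair passed at a q under 0.01 (0.989% of all genes fell), with adjustment within the comparison (1.23%) or with a log2 difference of at least 1 (0.478%). Mup4, Mup21 and Mup1 were 1.56-fold, 1.24-fold and 1.15-fold lower, with q of 0.227, 0.361 and 0.66 in the authors' deposited table. Mup3 had no value in IkkB KO hepatocytes because its row was marked HIDATA for too many fragments, so its difference from WT there is unknown. In Double KO against IkkB KO, 4 of 4 testable members fell (5.62% of all genes fell), by 25.3-fold for Mup1, 2.78-fold for Mup5, 2.56-fold for Mup4 and 2.51-fold for Mup21. Their q-values in the authors' deposited table were 0.00048, 0.00294, 0.0190 and 0.00048. In that pair of IkkB KO and Double KO, 0 of 12 macrophage markers rose and 1 fell, with sums of 312 and 311, and 1 of 11 stellate cell and fibroblast markers rose and 5 fell, with sums of 161 and 87.0.

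Between Double KO and Shp2 KO hepatocytes no member passed the test by Cuffdiff (0 of 5 fell, 3.31% of all genes fell, and 0 rose). All 5 values were higher in Double KO, with log2 fold changes in the authors' deposited table from 0.07 (Mup1) to 0.50 (Mup3). At an unadjusted p under 0.05 there was 1 gene, Mup21, with p = 0.03805 and q = 0.122 in the authors' deposited table. In the order of hepatocyte levels, the neighbours that did not separate past the threshold were thus Double KO and Shp2 KO for all 5, and WT and IkkB KO for Mup1, Mup4 and Mup21. Shp2 KO against IkkB KO hepatocytes was not analysed here.

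**Figure D3:**
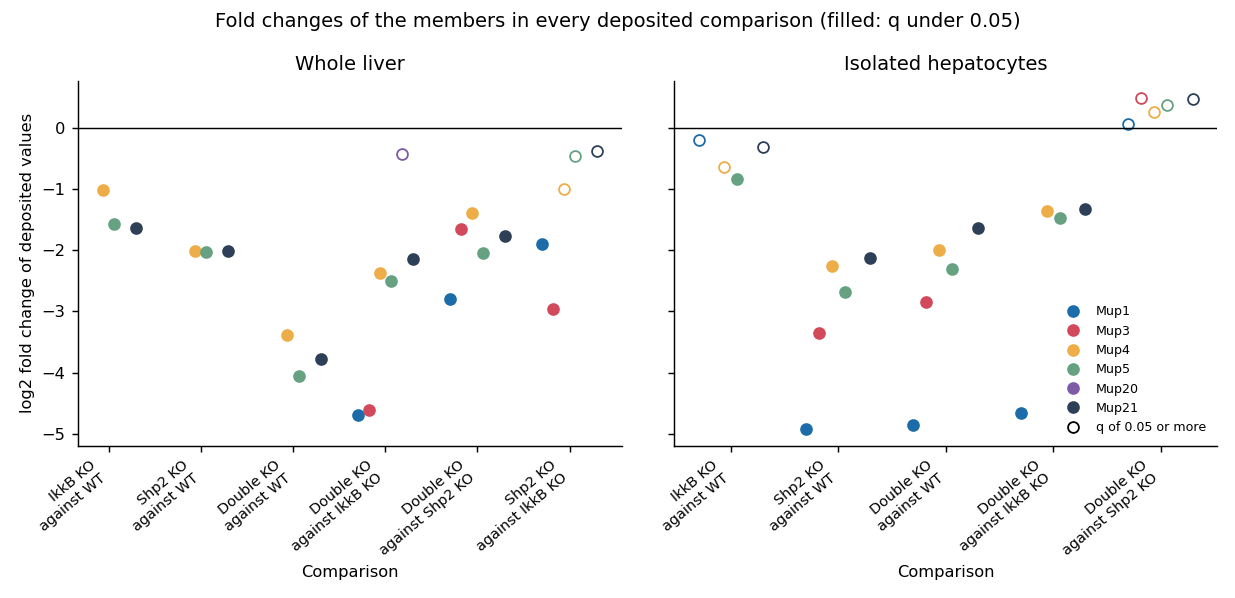
log2 fold change of each of the 6 Mup genes in every comparison of the authors' deposited tables, for whole liver (left) and isolated hepatocytes (right); filled points have q under 0.05, open points do not, and genes not measured in a pair have no point. All filled points of these 6 genes lie below 0, and the points of Double KO against Shp2 KO in hepatocytes are all open and above 0.

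The same deletion can be read in animals with and without the other gene, from pairs that share no samples. For the Shp2 deletion in liver, log2 fold changes in the authors' deposited table were -2.01 on the WT background and -2.37 on the IkkB KO background for Mup4, -2.02 and -2.50 for Mup5, and -2.01 and -2.14 for Mup21. In liver these fell on both backgrounds, with a larger fall where IkkB was missing as well. In hepatocytes the same deletion gave -4.93 and -4.66 for Mup1, -2.26 and -1.36 for Mup4, -2.67 and -1.47 for Mup5, and -2.12 and -1.33 for Mup21 in the authors' deposited table. There the fall was smaller on the IkkB KO background for all 4 genes. The difference between the backgrounds ran from -0.48 to -0.12 in liver and from 0.27 to 1.20 in hepatocytes on the log2 scale. It could not be tested, because the tables hold no replicate values.

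The members were also summed over those measured in every genotype. This leaves out Mup3 and Mup20, and Mup1 in liver. Such a sum is therefore no family total and cannot settle how reads were divided among copies. With all 6 members, the sum was 21131 in IkkB KO liver and 5932 in Double KO liver. In liver (Mup4, Mup5 and Mup21) the sum was 836 for WT, 270.3 for IkkB KO, 207 for Shp2 KO and 60.9 for Double KO, which is 32.3%, 24.8% and 7.29% of WT. In hepatocytes (these 3 and Mup1) it was 681, 556, 128 and 178, or 81.5%, 18.9% and 26.1% of WT. Mup21 dominated both sums, with 95.5% to 96.4% of the liver sum and 76.8% to 95.5% of the hepatocyte sum. The makeup of the liver sum was steady across genotypes, with Mup4 at 0.686% to 1.05% and Mup5 at 2.73% to 3.47%. That of the hepatocyte sum was not: Mup1 made up 20.2% in WT and 21.6% in IkkB KO, but 3.52% in Shp2 KO and 2.67% in Double KO. Including Mup3, measured in WT, Shp2 KO and Double KO hepatocytes, raised the sums to 14503, 1482 and 2094. The sum without its highest member, Mup21, was 21.4-fold lower in Shp2 KO hepatocytes than in WT, against 5.30-fold with it.

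Among the other 14 Mup rows of each table, most of those that could be tested were lower in the knockouts as well. Only Mup6 was measured in WT liver, at 8.26, with 4.05 in IkkB KO, 4.51 for Shp2 KO and 1.83 for Double KO. Mup6 fell in IkkB KO and Double KO liver, where 2.17% and 6.62% of all genes fell. Its Shp2 KO value did not pass the test (q = 0.0944 in the authors' deposited table). In hepatocytes, 8 of 14 were measured in WT. Of these, 3 of 8 fell in IkkB KO, 8 of 8 in Shp2 KO and 7 of 8 in Double KO. The shares of all genes that fell there were 1.81%, 4.53% and 4.56%. Mup12 fell from 47.6 in WT to 1.31 in Shp2 KO and 0.985 in Double KO hepatocytes. Mup17 was 134.6 for WT, 31.3 for IkkB KO, 4.71 for Shp2 KO and 3.78 for Double KO in hepatocytes. Mup10 was high where it had a value, at 718 in Double KO liver and 767 and 810 in Shp2 KO and Double KO hepatocytes. The liver value stands only in rows marked HIDATA. Mup14 was the only Mup row that rose in any comparison, from 9.33 in Shp2 KO to 27.3 in Double KO hepatocytes (q = 0.00048 in the authors' deposited table). It was picked out here after its values were seen.

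All of these genes lie in 1 cluster on chromosome 4, in the RefSeq order Mup4, Mup1, Mup5, Mup20, Mup3, Mup21. From Mup4 to Mup21, both included, RefSeq lists 46 genes, 44 of them named Mup and 22 of these pseudogenes. The 3 genes next to the cluster on either side are Slc46a2, Snx30 and Inip, and Zfp37, Slc31a2 and Fkbp15. Of these, Slc46a2 was listed at 0 and Zfp37 did not exceed 0.105, and the other 4 were testable in all 11 comparisons. In every one of the 11, 0 of these 4 were called by Cuffdiff. Among all genes, 1.81% to 7.5% fell in these 11, and 2.37% to 11.5% rose in those against WT. A count of 0 among only 4 genes therefore says little. Their log2 fold changes in the authors' deposited table ran from -0.32 to 0.47, with no q under 0.323.

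**Figure D4:**
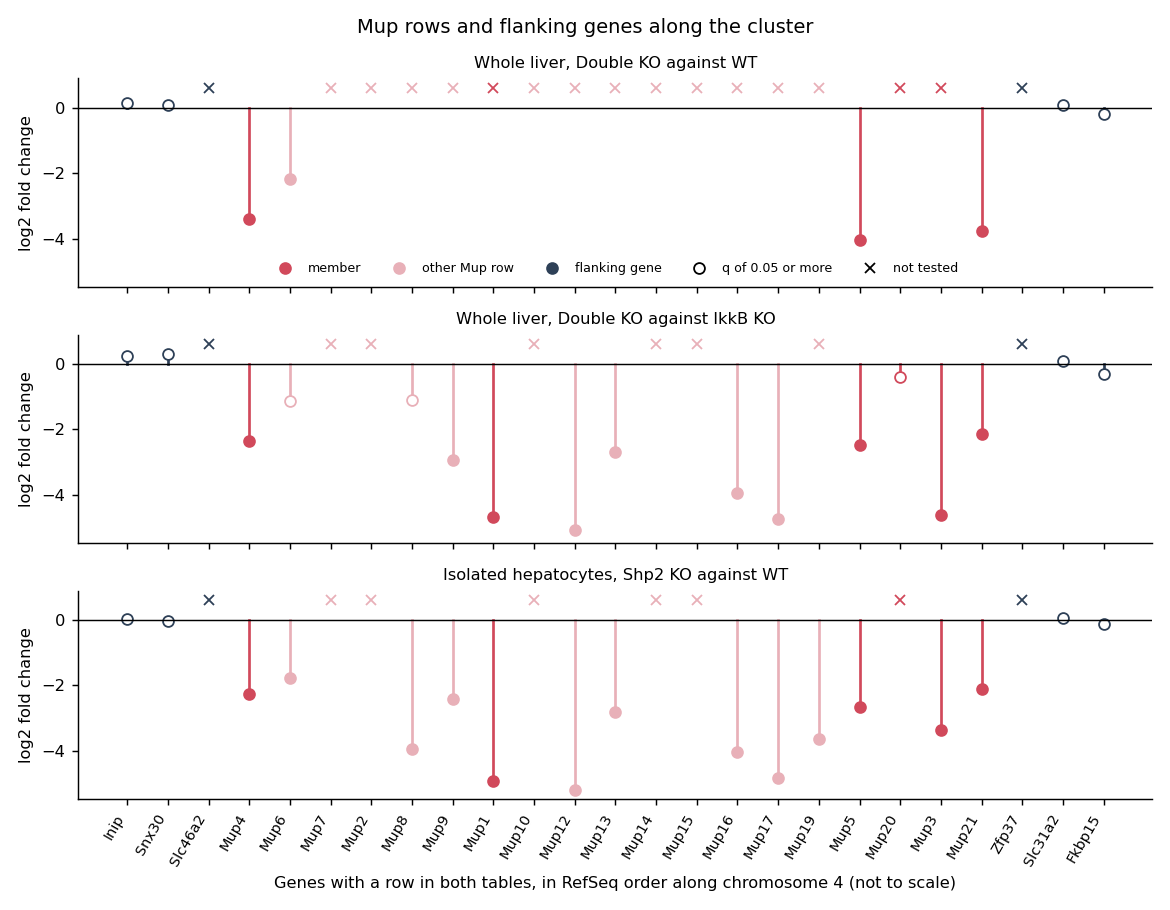
log2 fold change in 3 comparisons for every gene with a row in both tables from Inip to Fkbp15, in RefSeq order along chromosome 4 and not to scale; red marks the 6 genes, pink other Mup rows and dark blue the flanking genes, open circles have q of 0.05 or more, and crosses, placed at an arbitrary height, mark genes not tested. In these 3 comparisons the flanking genes run from -0.30 to 0.30, while every Mup gene with a filled circle lies below -1.

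Promoter sequence was at hand for 3 of the 6 genes and for 11 other Mup genes. The 250 bases before the annotated start (RefSeq, GRCm38.p6, minus strand of chromosome 4) are shown for these 3, each of which fell against WT in Shp2 KO and in Double KO hepatocytes. Capitals mark the letters TATATAA, a core promoter motif, which was chosen after the sequences were seen and searched on both strands. Its first base lay 29 bases before the annotated start in Mup4, 11 in Mup3 and 8 in Mup21. Whether these annotated starts are the ones used in liver was not tested.
Mup4 (chr4:59960668-59960917): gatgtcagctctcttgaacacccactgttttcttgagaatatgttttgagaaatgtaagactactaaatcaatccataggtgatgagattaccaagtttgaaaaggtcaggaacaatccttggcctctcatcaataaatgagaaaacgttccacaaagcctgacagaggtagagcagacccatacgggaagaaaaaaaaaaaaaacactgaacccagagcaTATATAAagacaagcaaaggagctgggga
Mup3 (chr4:62087318-62087567): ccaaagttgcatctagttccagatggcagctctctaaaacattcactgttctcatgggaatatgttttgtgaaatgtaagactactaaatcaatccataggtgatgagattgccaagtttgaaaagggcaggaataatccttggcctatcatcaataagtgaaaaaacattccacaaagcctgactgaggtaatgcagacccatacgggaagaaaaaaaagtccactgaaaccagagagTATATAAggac
Mup21 (chr4:62150842-62151091): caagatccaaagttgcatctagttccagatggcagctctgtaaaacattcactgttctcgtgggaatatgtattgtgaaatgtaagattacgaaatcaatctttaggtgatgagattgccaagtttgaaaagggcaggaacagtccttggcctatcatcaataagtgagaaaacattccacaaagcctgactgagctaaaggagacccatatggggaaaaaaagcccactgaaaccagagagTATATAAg
Mup3 and Mup21, which share the most coding sequence, also had the most alike promoters of these 3. Identity over the windows was 89.1% between Mup3 and Mup21, 74.9% between Mup4 and Mup3 and 68.2% between Mup4 and Mup21. These percentages count gap columns of the alignment as differences. In the same order of pairs, 12, 42 and 54 columns were gaps and 16, 26 and 34 were mismatches. The windows end at annotated starts that lie at unlike distances from TATATAA, so the percentages also reflect that shift. In both pairs with Mup4, gaps outnumbered mismatches. TATATAA was found in 11 of the 14 Mup promoters and in 3.04% of 32851 promoter windows of the same length. The motif TTCNNNGAA, the letters that STAT proteins bind, occurred in 0 of 14, against 7.02% of all windows, which says only that these letters are not in these windows.

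Other genes known for sex-biased expression in liver were described beside the Mup genes by counts and medians, with values for a few named genes. Of 18 male-biased genes other than Mup genes, 17 were testable against WT in each comparison. In liver, 11 fell and 0 rose in IkkB KO, 13 fell and 3 rose in Shp2 KO, and 15 fell and 1 rose in Double KO, with medians on the log2(value + 1) scale of -0.88, -0.999 and -1.68. Among all genes, 2.17%, 4.1% and 6.62% fell and 2.37%, 5.23% and 11.5% rose in these liver comparisons. In hepatocytes 8 fell and 1 rose in IkkB KO, 15 fell and 1 rose in Shp2 KO and 10 fell and 2 rose in Double KO, with medians of -0.75, -1.73 and -1.30. Among all genes, 1.81%, 4.53% and 4.56% fell and 7.6%, 7.13% and 9.04% rose in these hepatocyte comparisons. The medians of all genes lay between -0.03 and 0.01 in these 6 comparisons. Selenbp2, a selenium-binding protein of male liver, was 774 for WT, 423 for IkkB KO, 61.6 for Shp2 KO and 133.2 for Double KO in hepatocytes. The steroid enzyme gene Hsd3b5 was 149.6, 88.1, 1.40 and 6.02 in the same order. Both fell in each knockout, and both rose in Double KO against Shp2 KO hepatocytes, where 5 of 16 testable male-biased genes rose and 1 fell (3.44% of all genes rose). Not every male-biased gene followed this course. Cyp4a12b was 51.0 for WT, 16.3 for IkkB KO, 158 for Shp2 KO and 118 for Double KO in liver. In hepatocytes it was 35.4, 9.83, 82.8 and 112 in the same order. Against WT it fell in IkkB KO and rose in Shp2 KO and Double KO, in liver and hepatocytes alike.

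Female-biased genes (21 listed, 10 to 15 testable against WT) went the other way in most cases. In liver 9 of 11, 5 of 10 and 12 of 14 rose in IkkB KO, Shp2 KO and Double KO, beside 2.37%, 5.23% and 11.5% of all genes, and 1, 1 and 0 fell. In hepatocytes 3 of 10, 13 of 15 and 7 of 12 rose, beside 7.6%, 7.13% and 9.04% of all genes, and 1, 0 and 2 fell. Cyp2b9, a cytochrome P450 of female liver, was 0.165 for WT, 2.47 for IkkB KO, 53.9 for Shp2 KO and 1.67 for Double KO in hepatocytes. The Shp2 KO value stands far above that of Double KO. In that pair of genotypes, 9 of 15 testable female-biased genes fell in hepatocytes (3.31% of all genes fell). The 5 testable of the 6 Mup genes differed there by at most 1.42-fold and did not pass the test. Liver Cyp2b9 rose from 0.0402 for WT to 2.20 for IkkB KO and 1.84 for Double KO, and its 0.0429 for Shp2 KO was not tested.

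**Figure D5:**
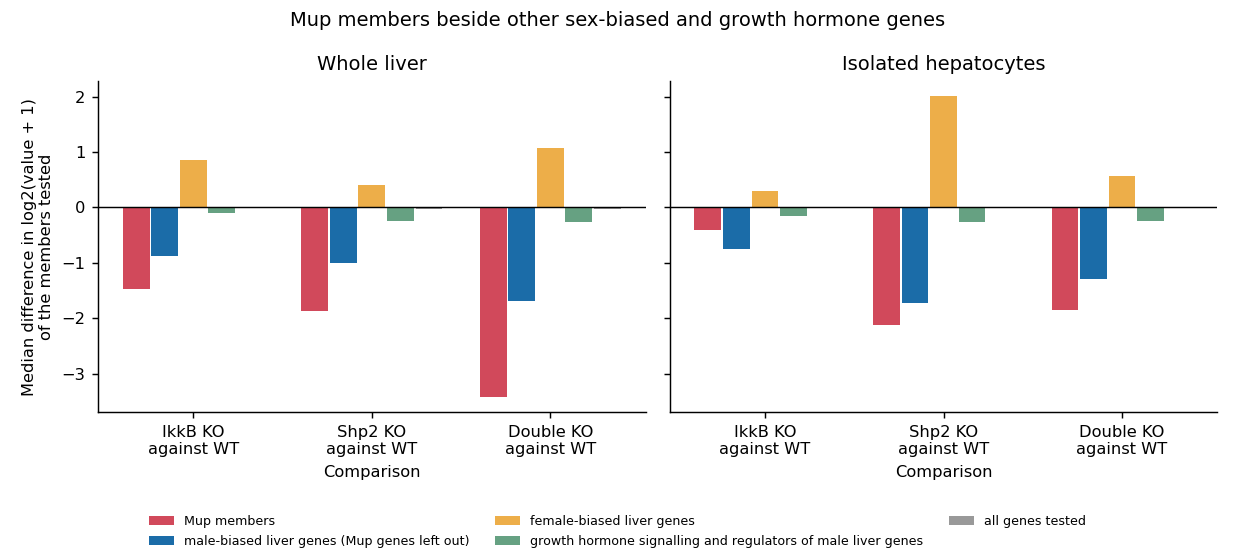
Median difference from WT in log2(value + 1) over the testable genes of each list, in whole liver (left) and isolated hepatocytes (right), with 1 bar per list; bars of all genes tested lie so close to 0 that they are barely visible. The Mup bars reach -3.43 in Double KO liver and -2.12 in Shp2 KO hepatocytes, and the female-biased bar reaches 2.01 in Shp2 KO hepatocytes.

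Growth hormone signalling genes and regulators of male liver genes (23 listed, the deleted Ptpn11 among them) had medians nearer to 0. Onecut1, the liver transcription factor HNF6, was 9.62 for WT, 4.74 for IkkB KO, 5.68 for Shp2 KO and 2.01 for Double KO in liver. In hepatocytes it was 30.7, 13.0, 5.40 and 9.30 in the same order. Onecut1 fell in all 6 comparisons with WT. Cish, a STAT5-induced inhibitor of growth hormone signalling, was 38.7, 20.8, 12.2 and 17.1 in hepatocytes and fell in all 3 knockouts there. In liver Cish was 18.7 in WT and fell to 8.86 in Shp2 KO, while its values of 15.3 in IkkB KO and 13.2 in Double KO did not pass the test. Cux2, a repressor typical of female liver, rose from 0.434 in WT to 4.78 in Shp2 KO hepatocytes and fell to 0.0705 in Double KO. In liver Cux2 rose from 0.0646 in WT to 0.749 in IkkB KO and 0.866 in Double KO, and its 0.128 in Shp2 KO was not tested. Of the list, 4, 4 and 6 genes fell in IkkB KO, Shp2 KO and Double KO liver and 5, 8 and 6 in hepatocytes, of 21 or 22 testable, while 2, 1 and 3 rose in liver and 2, 4 and 2 in hepatocytes. The shares of all genes that fell in those comparisons were 2.17%, 4.1% and 6.62% in liver and 1.81%, 4.53% and 4.56% in hepatocytes, and those that rose 2.37%, 5.23% and 11.5%, and 7.6%, 7.13% and 9.04%. The list's medians lay between -0.27 and -0.10. Ptpn11 was not left out of these counts and medians. Its lower level in Shp2 KO and Double KO is set by the design.

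Genes whose levels followed the Mup genes most closely were ranked by Pearson's r of log2(value + 1), centred within each table, over the 8 genotype values. Such values share genotypes and tables, and r is given only as a description, over 688 genes. Beside Mup21 (0.997) and Mup5 (0.991), which are parts of the sum, the genes most like the Mup sum were Nlrp12 (r = 0.993), Cyp7b1 (0.984) and Serpina9 (0.984). Nlrp12, an NLR family gene, was 10.6, 5.81, 4.59 and 2.19 in liver and 10.95, 8.90, 3.24 and 4.77 in hepatocytes, in the order WT, IkkB KO, Shp2 KO, Double KO. Cyp7b1, a male-biased oxysterol hydroxylase, was 228, 102, 108 and 27.8 in liver and 125, 90.7, 31.2 and 43.8 in hepatocytes. These orders of genotypes match that of the sum except that Cyp7b1 was slightly higher in Shp2 KO than in IkkB KO liver. Most like Mup4 were Mup5, C4a and Xbp1 (each 0.98), and most like Mup5 were Mup21 (0.993), Rarres1 (0.988) and Mup4. Most like Mup21 were Mup5, Nlrp12 (0.987) and Serpina9.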

How the data were processed

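RNA of 24 samples (8 groups of 3) was made into libraries with the TruSeq v2 kit, per the labels' protocols. The authors deposited 1 Cuffdiff table for liver and 1 for hepatocytes. Cuffdiff, FastQC and build mm9 are named in the submitters' processing notes; for aligner, annotation, strand, versions and read length these sources give nothing. The unit of the deposited expression values (other) is not stated in the header. Log2 fold changes are the authors' log2 ratios, and p-values and q-values are the authors' Cuffdiff tests. The deposited test statistic, a score, was not used. There are no counts per sample, so depth is unknown.

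Genes were called at q under 0.05, status OK and 0.1 or more in either genotype. Differences and sums used log2(value + 1). Signs follow the first genotype over the second. Every fold is the ratio of the deposited values. The script was tested on simulated data. Python 3.11.15, numpy 2.4.6, pandas 2.3.3, scipy 1.17.1, matplotlib 3.10.9 and biopython 1.88 were used.

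The members and all lists were chosen with earlier results of these data known. All 6 members are named. From other lists, up to 5 called genes with the largest differences in Shp2 KO or Double KO against WT are eligible, of which some are named. Cyp4a12b is named outside this rule, after its values were seen, because it rose. The genes most like the sum (5) and most like each member (3) follow the likeness ranking, among genes with a value of at least 1 and a log2 range of at least 1 in each table. Flanking genes were to come from positions in the tables; RefSeq gene order (GRCm38.p6) was used instead, with symbols matched by name. Alternatives were a q under 0.01, adjustment within 1 comparison, other filters (none, 1), a log2 difference of at least 1, a pseudocount of 0.1, centring on the median, and other sums. 1 bile duct marker is not reported here: the sums take the 7 that reach 0.1 in some genotype, a rule set after the data were seen in order to leave it out.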

Additional observations from a re-analysis of the deposited data

How the results depend on the processing

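No paired analysis was possible because the tables hold no column per replicate, and leaving out replicates could not be run for the same reason. Counts of members called in 10 of 11 comparisons stayed within 1.5 times under every threshold tried. In IkkB KO against WT hepatocytes the count of 1 became 0 at a q under 0.01, with adjustment within the comparison, and with a log2 difference of at least 1. Mup5 there had 0.129 and Mup4 in IkkB KO against WT liver 0.0585 after adjustment within the comparison. With a log2 difference of at least 1, called members of the 4 gene lists together went from 30 to 14 (IkkB KO against WT), from 32 to 18 (Shp2 KO against WT), from 35 to 23 (Double KO against IkkB KO) and from 28 to 17 (Double KO against Shp2 KO) in liver, and from 24 to 13 in IkkB KO against WT hepatocytes. Some changes that pass are below that size by the setting's own construction. The log2 difference of the Mup sum kept its direction under every setting. Without the highest member it moved from -2.40 to -4.24 (Shp2 KO against WT), from -1.93 to -4.09 (Double KO against WT) and from -1.64 to -3.84 (Double KO against IkkB KO) in hepatocytes, since Mup1 then leads the sum. Summed over the members measured in both genotypes of a pair, a setting chosen after seeing the data that adds Mup3, it was -3.29 and -2.79 in Shp2 KO and Double KO against WT hepatocytes, and went from -0.38 to -2.83 in Shp2 KO against IkkB KO liver. A pseudocount of 0.1 and centring kept the direction of all 48 member differences. That pseudocount moved 7 of 44 list medians beyond the tolerance, all of the female-biased list and all away from 0, for example from 2.01 to 3.19 in Shp2 KO against WT hepatocytes and from 0.41 to 1.09 in Shp2 KO against WT liver. Without read counts, what depth limits is unknown.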

Other observations

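Other secreted lipocalins, the wider protein family of the Mup genes, changed in both directions. Of 14 listed, 11 were testable against WT. In liver, 2, 3 and 4 rose and 2, 2 and 2 fell in IkkB KO, Shp2 KO and Double KO, and in hepatocytes 0, 4 and 2 rose and 4, 2 and 3 fell. Of all genes, 2.37%, 5.23% and 11.5% rose and 2.17%, 4.1% and 6.62% fell in these liver comparisons, and 7.6%, 7.13% and 9.04% rose and 1.81%, 4.53% and 4.56% fell in hepatocytes. Obp2a, an odorant-binding lipocalin, was 6.15 for WT, 2.44 for IkkB KO, 0.414 for Shp2 KO and 0.298 for Double KO in liver. In hepatocytes Obp2a was 7.72, 3.08, 0.621 and 0.916 in the same order. It fell in all 6 comparisons with WT.

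Orm2, an acute phase lipocalin, went the other way in Shp2 KO and Double KO. Its values were 14.8 for WT, 22.8 for IkkB KO, 126 for Shp2 KO and 649.6 for Double KO in liver, and 41.6, 22.0, 627 and 174 in hepatocytes. Against WT, Orm2 also rose in IkkB KO liver but fell in IkkB KO hepatocytes (q = 0.0369 and 0.00197 in the authors' deposited table). Ptgds, a prostaglandin D synthase of lipocalin fold, rose in liver from 3.42 in WT to 18.1 in Shp2 KO and 12.3 in Double KO, and in hepatocytes from 5.39 to 41.6 and 21.9. Lcn2, an iron-carrier-binding lipocalin induced in inflammation, was 56.3 for WT, 8.51 for IkkB KO, 237 for Shp2 KO and 26.1 for Double KO in hepatocytes, where it fell, rose and fell against WT. In liver Lcn2 was 23.7 in WT, fell to 11.9 in IkkB KO, had 32.6 in Shp2 KO, which did not pass the test, and rose to 130.8 in Double KO.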
